A study of Arabidopsis thaliana with 12 samples.

Results

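A stretch of chromosome 4 of Arabidopsis thaliana holds a tandem run of genes for cysteine-rich receptor-like kinases (CRKs). It was delimited by locus number, as all genes from AT4G22980 to AT4G23610, which gave 71 of the 27655 genes measured. In the RefSeq annotation of TAIR10.1 these genes lie between positions 12043869 and 12314829, over 271 kb. The CRK run covers 74.2 kb of it, from AT4G23130 (CRK5) to AT4G23320 (CRK24), and holds 20 CRK genes. The other 51 genes, among them the small gene AT4G23271 inside the CRK19 locus, encode proteins of many kinds. The stretch was selected on the TPM levels of its CRK genes in the 4 groups of these libraries, so differences between the groups in its genes are given as a description, and none is support for another. The annotation names 19 of the 20 as cysteine-rich receptor-like kinases. CRK9 is listed as kinase-related, with 1 exon and 265 coded residues, against up to 1043 residues for CRK8.

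CRKs sit in the plasma membrane, with a cysteine-rich part outside the cell and a kinase inside it. They form one of the large families of plant receptor kinases, and many members are induced by pathogens, salicylic acid and reactive oxygen species in leaves and seedlings. Their kinases act beside immune receptors such as FLS2, its co-receptor BAK1, the cytoplasmic kinase BIK1 and the NADPH oxidases RBOHD and RBOHF. Methylation of histone H3 at lysine 4 marks the start of transcribed genes, and SDG2 is a methyltransferase that deposits it.

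Transcript levels were measured by RNA sequencing of total RNA from whole seedlings aged 3 weeks, grown at 22 °C in days of 16 h light and 8 h dark. The 4 groups had 3 libraries each. K4A stands for libraries labelled h3.3ko;HTR5 K4A, plants with a knockout of histone H3.3, by the label, that carry its gene HTR5 with lysine 4 changed to alanine. HTR5 stands for h3.3ko;HTR5, the same knockout carrying HTR5 without that change, so both share the knockout. The libraries labelled sdg2 are named for the methyltransferase gene, and Col is the wild type. The promoter that drives HTR5 in these plants, the alleles, the number of lines and the number of plants per library are not given in the sources used here. Nothing in the labels says that the replicates were separate cultures, so spread between libraries may be technical. In whole seedlings, fewer cells of a type and less RNA per cell cannot be told apart.

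Levels are in TPM (read density per length of gene, summing to 1000000 in a library), and the reads behind them were worked out from the values and the gene spans. Depth was 21486218 to 27608835 reads per library in K4A and 20693829 to 30320602 in sdg2, against 13687439 to 14502065 in HTR5 and 13742575 to 14142956 in Col. The K4A and sdg2 libraries also differed together from the HTR5 and Col libraries in the share of TPM from chloroplast-encoded genes, 0.0292% to 0.0446% against 0.155% to 0.431%. This division cannot be told apart from the groups when K4A is set against HTR5 or sdg2 against Col, while K4A against sdg2 and HTR5 against Col lie within it. HTR5 replicate 2 stood apart, with a chi-square per degree of freedom of 19.4 and 16.0 against replicates 1 and 3 of its group, where other replicate pairs had 1.80 to 6.12. Transcripts of SDG2 were high in the libraries labelled sdg2, at 161 ± 19.4 TPM against 21.8 ± 3.10 TPM in Col (SD, n = 3 each), so those libraries are called by their label throughout. HTR8, another H3.3 gene, had 4.80 ± 0.827 TPM in K4A and 6.49 ± 3.22 TPM in HTR5, against 192 ± 22.0 TPM in sdg2 and 243 ± 8.58 TPM in Col, while HTR4, also of H3.3, had 77.9 ± 7.28, 169.6 ± 9.34, 273 ± 13.3 and 316 ± 7.57 TPM in K4A, HTR5, sdg2 and Col. All 4 leaf markers listed were lower in K4A than in HTR5 and lower in sdg2 than in Col, with sums of 11738 to 12819 TPM in K4A, 21787 to 27794 TPM in HTR5, 7562 to 8986 TPM in sdg2 and 26172 to 27034 TPM in Col. Of the 5 root markers, COBL9, EXPA7 and TIP2;3 were under 1 TPM in every library, SHR averaged 23.1 ± 1.12 TPM in K4A, 32.6 ± 3.601 in HTR5, 32.9 ± 1.73 in sdg2 and 34.3 ± 1.62 in Col and was called lower in K4A than in HTR5, and PHT1;1, at most 1.38 TPM in any library, was called higher in K4A. Sums of 3 pollen markers were 3.66 to 6.38 TPM in K4A, 184 to 193 TPM in HTR5, 368 to 396 TPM in sdg2 and 197 to 281 TPM in Col. The 3 flower markers were all called lower in K4A than in HTR5 and higher in HTR5 than in Col, with sums of 61.7 to 63.2 TPM in K4A, 76.4 to 106 TPM in HTR5, 58.1 to 66.2 TPM in sdg2 and 56.7 to 63.9 TPM in Col. Of 2 clock genes, TOC1 averaged 80.6 ± 4.20 TPM in K4A against 11.7 ± 2.05 TPM in HTR5, and 113 ± 2.05 TPM in sdg2 against 10.4 ± 0.723 TPM in Col. CCA1 averaged 92.3 ± 1.49 TPM in K4A against 150.03 ± 15.2 TPM in HTR5, and 14.1 ± 0.135 TPM in sdg2 against 132 ± 10.1 TPM in Col. Whether the markers or the clock genes have a part in the CRK values was not tested.

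Stretches of 250 bases before the annotated start are shown for 6 CRK genes, chosen to set 4 genes with large differences between groups beside CRK21, which went the other way, and CRK22, which lies head to head with it and differed little. Capitals mark TTGAC, the core of the W-box bound by WRKY factors, on either strand (GTCAA on the strand shown). They are in order chr4:12121119-12121368 on the plus strand, chr4:12125414-12125663 on the plus strand, chr4:12143859-12144108 and chr4:12156882-12157131 on the minus strand, chr4:12180937-12181186 on the minus strand and chr4:12181375-12181624 on the plus strand, all in TAIR10.1 and written 5′ to 3′ toward the gene.
CRK6: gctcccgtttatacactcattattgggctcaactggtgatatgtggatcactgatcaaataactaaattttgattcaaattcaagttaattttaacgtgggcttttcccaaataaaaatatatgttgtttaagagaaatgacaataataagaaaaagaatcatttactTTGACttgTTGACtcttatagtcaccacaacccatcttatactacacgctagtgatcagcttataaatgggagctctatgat
CRK7: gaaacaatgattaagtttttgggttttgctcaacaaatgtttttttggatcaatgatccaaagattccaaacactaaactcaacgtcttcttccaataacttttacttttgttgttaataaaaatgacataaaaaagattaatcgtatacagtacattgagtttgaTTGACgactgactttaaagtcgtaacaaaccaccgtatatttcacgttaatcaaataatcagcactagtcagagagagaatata
CRK11: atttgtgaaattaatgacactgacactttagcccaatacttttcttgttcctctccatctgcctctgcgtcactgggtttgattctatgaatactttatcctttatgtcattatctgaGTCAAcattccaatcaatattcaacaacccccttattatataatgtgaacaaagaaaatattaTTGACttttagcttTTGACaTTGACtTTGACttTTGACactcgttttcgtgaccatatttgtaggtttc
CRK14: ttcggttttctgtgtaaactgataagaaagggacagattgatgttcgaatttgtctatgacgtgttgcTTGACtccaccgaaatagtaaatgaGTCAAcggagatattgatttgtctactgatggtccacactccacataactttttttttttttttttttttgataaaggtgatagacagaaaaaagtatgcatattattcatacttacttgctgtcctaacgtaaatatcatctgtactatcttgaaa
CRK21: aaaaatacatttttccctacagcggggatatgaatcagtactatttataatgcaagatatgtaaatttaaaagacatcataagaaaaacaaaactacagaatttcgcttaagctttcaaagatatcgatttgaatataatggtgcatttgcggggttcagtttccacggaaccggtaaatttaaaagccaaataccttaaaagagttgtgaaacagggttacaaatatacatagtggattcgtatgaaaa
CRK22: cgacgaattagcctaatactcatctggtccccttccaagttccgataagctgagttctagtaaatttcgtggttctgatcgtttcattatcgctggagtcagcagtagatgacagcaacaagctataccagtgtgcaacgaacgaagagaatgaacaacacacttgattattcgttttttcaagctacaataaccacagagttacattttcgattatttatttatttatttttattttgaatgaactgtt

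In this window, TTGAC was found before 15 of the 20 CRK genes, or 75.0%, against 31 of the 51 other genes of the stretch (60.8%) and 44.9% of the 27444 genes with a window. It occurred 2 or more times before 11 CRK genes, or 55%, against 33.3% of the other genes and 14.1% of all. CRK11 had 6 copies. The windows of CRK12, CRK13, CRK19, CRK21 and CRK22 held none, although CRK12, CRK13 and CRK19 were among the genes higher in K4A and sdg2. These last are not shown above, where every gene with a large rise holds TTGAC, so the windows shown do not stand for the whole run. The sequence TGACG, the core of the as-1 element bound by TGA factors, overlaps the W-box core where TTGACG occurs. It was found before 7 of the 20 CRK genes (35.0%), against 15.7% of the other genes and 18.6% of all. CACGTG, the G-box, and AAAATATCT, the evening element, were found before 0 of the 20, against 6.49% and 2.36% of all genes. The letters alone say nothing of binding, and some windows reach into a neighbouring gene.

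**Figure D1:**
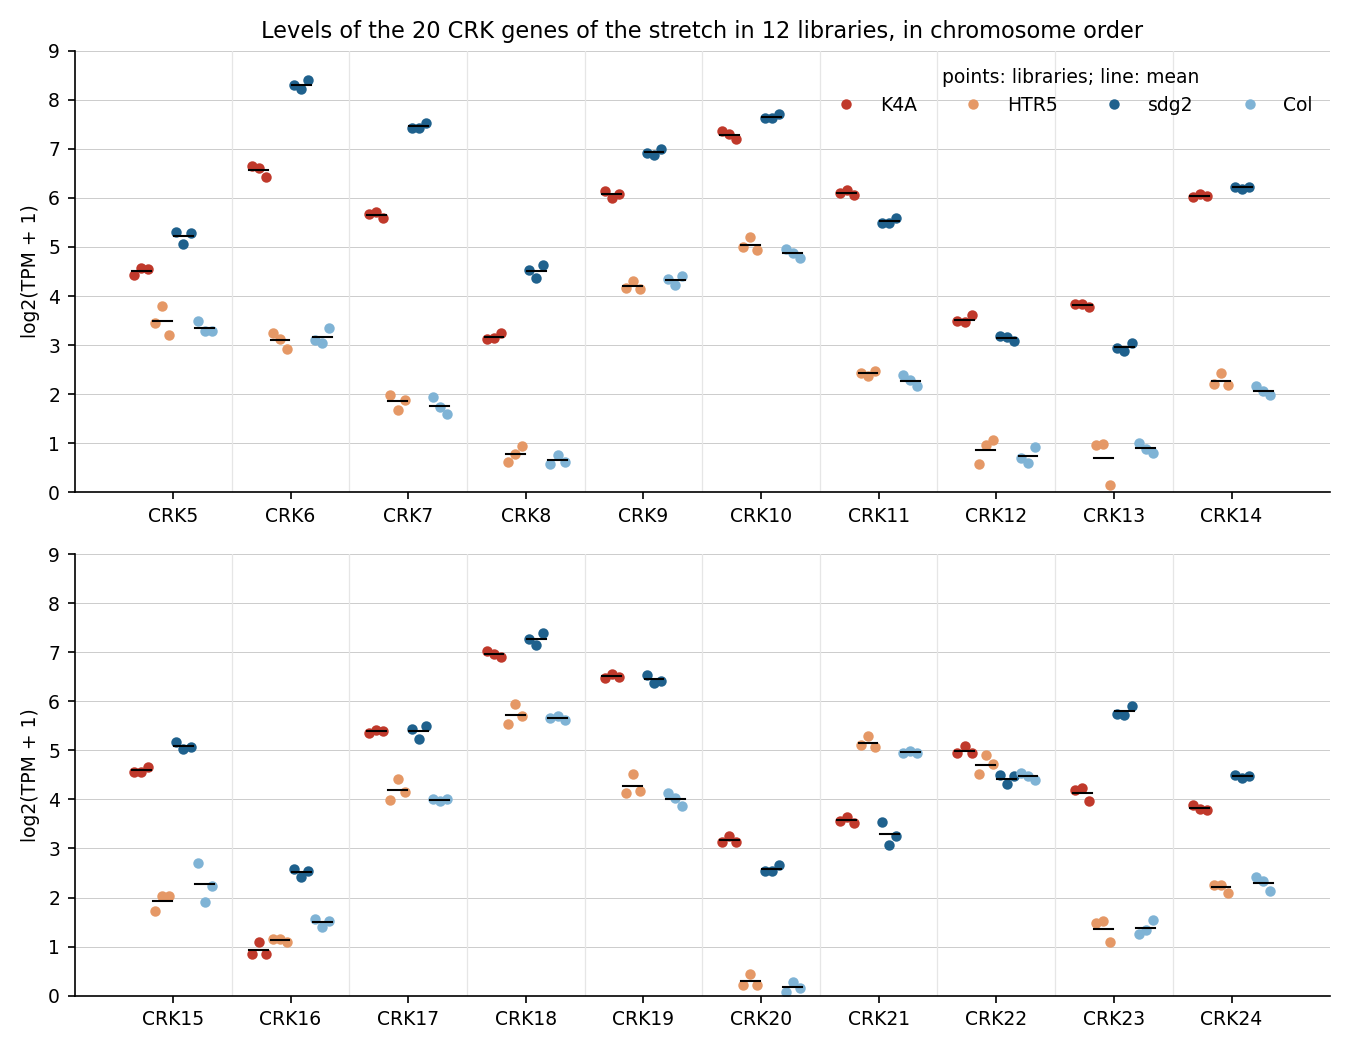
Levels of the 20 CRK genes in chromosome order, as log2(TPM + 1), with a point for each library and a line at the mean of K4A, HTR5, sdg2 and Col (n = 3 each). CRK6 and CRK7 have the widest distance between sdg2 and Col, and CRK21 is the gene whose K4A and sdg2 points lie below those of HTR5 and Col.

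Most genes of the CRK run stood several-fold higher in K4A than in HTR5 and higher in sdg2 than in Col, while HTR5 and Col had like levels. Together the 20 genes summed to 910 ± 27.0 TPM in K4A against 238 ± 26.6 TPM in HTR5, and to 1432 ± 69.7 TPM in sdg2 against 219 ± 7.17 TPM in Col (SD, n = 3 each). The sums were 3.82 and 6.55 times as high in K4A and sdg2 as in their controls. The other 51 genes summed to 1128 ± 4.68 TPM in K4A against 841 ± 16.4 TPM in HTR5, and to 1028 ± 17.5 TPM in sdg2 against 858 ± 14.7 TPM in Col, which are ratios of 1.34 and 1.20. In both pairs the groups' sums did not overlap, for either set. Sums follow the abundant genes most. For the 32 other genes tested, median log2 fold changes were 0.53 in K4A and 0.22 in sdg2, beside 0.14 and 0.31 over all genes.

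**Figure D2:**
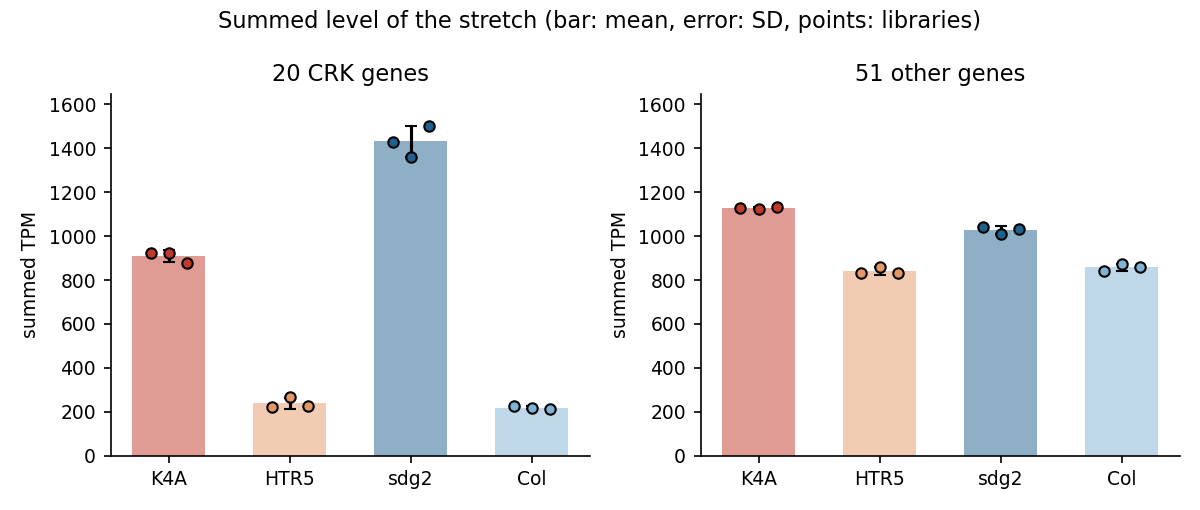
Summed level of the 20 CRK genes and of the 51 other genes of the stretch, in TPM, with a point for each library, a bar at the mean of K4A, HTR5, sdg2 and Col and an error bar of 1 SD. The CRK sums lie between 879 and 926 TPM in K4A, between 221 and 269 TPM in HTR5, between 1363 and 1502 TPM in sdg2 and between 213 and 227 TPM in Col.

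A gene was called where limma gave an adjusted p under 0.05 on log2(TPM + 1), a scale on which the change of low genes is understated. Of the 20 CRK genes, 18 were called higher and 1 lower in K4A than in HTR5, while of all 20881 genes tested 68.6% passed, 42.5% as higher and 26.1% as lower. In sdg2 against Col again 18 were called higher and 1 lower, where 73.2% of all genes were called, 52.4% higher and 20.7% lower. All K4A libraries were above all HTR5 libraries in 18 CRK genes and below them in 2, against 42.1% and 26.8% of all genes. All sdg2 libraries were above all Col libraries in 18 and below them in 1, against 55.7% and 22.7% of all genes. At least 2-fold higher were 17 CRK genes in K4A and 18 in sdg2, against 13.4% and 14.6% of all genes. The median log2 fold change of the 20 was 2.32 in K4A and 2.42 in sdg2, beside 0.14 and 0.31 over all genes. Under median-of-ratios scaling, which brought the medians of all genes to about 0, those of the CRK genes were 2.19 and 2.21, and 35.1% and 34.5% of all genes were called higher. CRK8, CRK12, CRK13 and CRK20 passed the filter on low values, of 1 TPM in 3 libraries, through K4A and sdg2, where they were high.

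The first 6 genes of the run, CRK5 to CRK10, rose more in sdg2 over Col than in K4A over HTR5, and the difference of effects was called for each of them. CRK6 and CRK7, which mediate responses to oxidative stress outside the cell, were the extreme pair. CRK7 had 49.96, 51.6 and 47.1 TPM in K4A against 2.97, 2.21 and 2.70 TPM in HTR5, and 170.4, 170.1 and 184 TPM in sdg2 against 2.83, 2.34 and 2.01 TPM in Col. Every K4A and every sdg2 library was far above all HTR5 and Col libraries, and the groups did not overlap. The log2 fold change was 3.81 ± 0.105 in K4A and 5.70 ± 0.105 in sdg2 (limma, ± SE), and the mean TPM was 18.9 and 73.1 times that of the control. CRK6 had 99.7, 96.7 and 84.7 TPM in K4A against 8.45, 7.75 and 6.59 TPM in HTR5, and 313, 296 and 338 TPM in sdg2 against 7.60, 7.28 and 9.21 TPM in Col. Here too the groups of each pair were apart, and the sdg2 libraries were above those of K4A. Its mean TPM was 12.3 times that of HTR5 in K4A and 39.3 times that of Col in sdg2. In Col, CRK6 made up 3.67% of the CRK sum and CRK7 1.09%. In sdg2 they made up 22.0% and 12.2%, and in K4A 10.3% and 5.45% against 3.19% and 1.102% in HTR5.

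CRK8, the longest of the predicted proteins, had means of 8.03 ± 0.384 TPM in K4A against 0.726 ± 0.192 TPM in HTR5, and 21.9 ± 2.04 TPM in sdg2 against 0.577 ± 0.107 TPM in Col (SD, n = 3 each). It stood below 1 TPM in every control library. CRK9, its close relative, had 66.3 ± 2.96 TPM in K4A against 17.4 ± 1.097 TPM in HTR5, and 121 ± 5.41 TPM in sdg2 against 19.0 ± 1.19 TPM in Col. CRK10, the highest of the run in K4A, had 163, 157 and 146 TPM there against 30.8, 35.9 and 29.6 TPM in HTR5, and 197, 198 and 208 TPM in sdg2 against 29.9, 28.4 and 26.4 TPM in Col. Groups did not overlap for any of these 3 genes. CRK5, whose overexpression raises defence and cell death, opens the run with smaller differences. It had 20.5, 22.9 and 22.5 TPM in K4A against 9.95, 12.9 and 8.23 TPM in HTR5, and 38.6, 32.6 and 38.1 TPM in sdg2 against 10.2, 8.75 and 8.75 TPM in Col. Its groups were apart in both pairs, with log2 fold changes of 1.04 ± 0.129 and 1.87 ± 0.129.

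Among the next genes, CRK11 to CRK15, levels were higher in K4A than in sdg2 for CRK11, CRK12 and CRK13. CRK11 had 67.7, 71.1 and 65.5 TPM in K4A against 4.36, 4.16 and 4.58 TPM in HTR5, and 44.1, 43.9 and 47.0 TPM in sdg2 against 4.23, 3.88 and 3.47 TPM in Col. K4A was the highest group, sdg2 lay between it and the controls, and no group of either pair overlapped. The mean TPM was 15.6 times that of HTR5 in K4A and 11.7 times that of Col in sdg2. CRK13, a gene whose induction leads to cell death and defence, had 13.3, 13.2 and 12.8 TPM in K4A against 0.961, 0.966 and 0.105 TPM in HTR5, and 6.71, 6.41 and 7.22 TPM in sdg2 against 1.004, 0.848 and 0.747 TPM in Col. HTR5 replicate 3 was low for it, but all K4A libraries were above all sdg2 libraries, and these above every control. CRK12 averaged 10.5 ± 0.588 TPM in K4A against 0.847 ± 0.309 TPM in HTR5, and 7.88 ± 0.304 TPM in sdg2 against 0.681 ± 0.192 TPM in Col. CRK14 had 63.9, 66.6 and 64.5 TPM in K4A against 3.603, 4.41 and 3.58 TPM in HTR5, and 73.5, 72.1 and 74.1 TPM in sdg2 against 3.48, 3.15 and 2.95 TPM in Col. Its replicates were close in every group, and its log2 fold changes were 3.77 ± 0.0893 in K4A and 4.15 ± 0.0893 in sdg2. CRK15 averaged 23.1 ± 0.992 TPM in K4A against 2.84 ± 0.450 TPM in HTR5, and 33.1 ± 1.80 TPM in sdg2 against 3.996 ± 1.39 TPM in Col.

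CRK17 and CRK18 were called higher in both pairs, and CRK16 in sdg2 against Col. CRK18, the highest CRK gene of the run in Col and in HTR5, had 129, 123 and 119 TPM in K4A against 45.6, 60.5 and 51.1 TPM in HTR5, and 153, 140.2 and 166 TPM in sdg2 against 49.8, 50.8 and 47.8 TPM in Col. Its mean was 2.36 times that of HTR5 in K4A and 3.09 times that of Col in sdg2, with no overlap. CRK17 lay next to it with 40.9 ± 0.731 TPM in K4A against 17.3 ± 2.78 TPM in HTR5, and 41.0 ± 3.997 TPM in sdg2 against 14.95 ± 0.226 TPM in Col. CRK16, a low gene that overlaps CRK17 by 1190 bases on the same strand, had 0.803, 1.15 and 0.793 TPM in K4A against 1.22, 1.24 and 1.15 TPM in HTR5, and 4.95, 4.37 and 4.81 TPM in sdg2 against 1.96, 1.62 and 1.86 TPM in Col. It was higher in sdg2 than in Col, while all its K4A values lay below those of HTR5, the nearest by less than the rounding. The log2 fold change of -0.21 ± 0.130 in K4A was not called, though it was called lower, at -0.29, with median-of-ratios scaling.

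CRK19 and CRK20, whose induced expression leads to cell death, lie side by side and are 89.97% identical over their aligned coding sequence. CRK19 was an abundant gene, with 88.5, 92.6 and 89.3 TPM in K4A against 16.6, 21.9 and 17.1 TPM in HTR5, and 92.4, 82.4 and 84.0 TPM in sdg2 against 16.6, 15.4 and 13.6 TPM in Col. CRK20 had 7.79, 8.50 and 7.73 TPM in K4A against 0.158, 0.356 and 0.165 TPM in HTR5, and 4.78, 4.80 and 5.38 TPM in sdg2 against 0.0551, 0.221 and 0.111 TPM in Col. Both were apart in the 2 pairs, although CRK20 rested on only 3 to 6 reads per library in HTR5 and 1 to 4 reads in Col. The log2 fold change of CRK20 was 2.88 ± 0.131 in K4A and 2.41 ± 0.131 in sdg2.

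The last 4 genes of the run went separate ways. CRK21 had 10.8, 11.5 and 10.4 TPM in K4A against 33.5, 38.5 and 32.5 TPM in HTR5, and 10.6, 7.38 and 8.57 TPM in sdg2 against 29.8, 30.9 and 30.0 TPM in Col. It was the 1 CRK gene of the run called lower in both pairs, with log2 fold changes of -1.58 ± 0.109 and -1.68 ± 0.109 and no overlap, and its mean in HTR5 and Col was 3.19 and 3.42 times that in K4A and sdg2. Its share of the CRK sum was 1.20% in K4A and 0.617% in sdg2, against 14.6% in HTR5 and 13.8% in Col. CRK22 had 29.7, 32.9 and 29.9 TPM in K4A against 21.8, 28.8 and 25.3 TPM in HTR5, and 21.5, 18.8 and 21.3 TPM in sdg2 against 22.3, 21.4 and 20.04 TPM in Col. The sdg2 and Col libraries overlapped, and the K4A libraries were above those of HTR5 by little. The log2 fold changes were 0.28 ± 0.0983 in K4A, which was called, and -0.05 ± 0.0983 in sdg2, which was not. The call in K4A was lost with quantile normalization, with median-of-ratios scaling, with limma-voom, with reads thinned to equal depth or when K4A and HTR5 were fitted alone, and without K4A replicate 2 or HTR5 replicate 1 (0.24 and 0.19). In sdg2 CRK22 was called lower with quantile normalization (-0.41), with median-of-ratios scaling (-0.38) and with limma-voom (-0.23). CRK23 had 17.4, 17.8 and 14.7 TPM in K4A against 1.80, 1.88 and 1.13 TPM in HTR5, and 52.7, 51.9 and 59.1 TPM in sdg2 against 1.40, 1.53 and 1.89 TPM in Col. All sdg2 libraries were above all K4A libraries, and both above every control, with mean ratios of 10.4 in K4A and 34.0 in sdg2. CRK24 averaged 13.2 ± 0.519 TPM in K4A against 3.62 ± 0.298 TPM in HTR5, and 21.2 ± 0.380 TPM in sdg2 against 3.93 ± 0.483 TPM in Col.

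**Figure D3:**
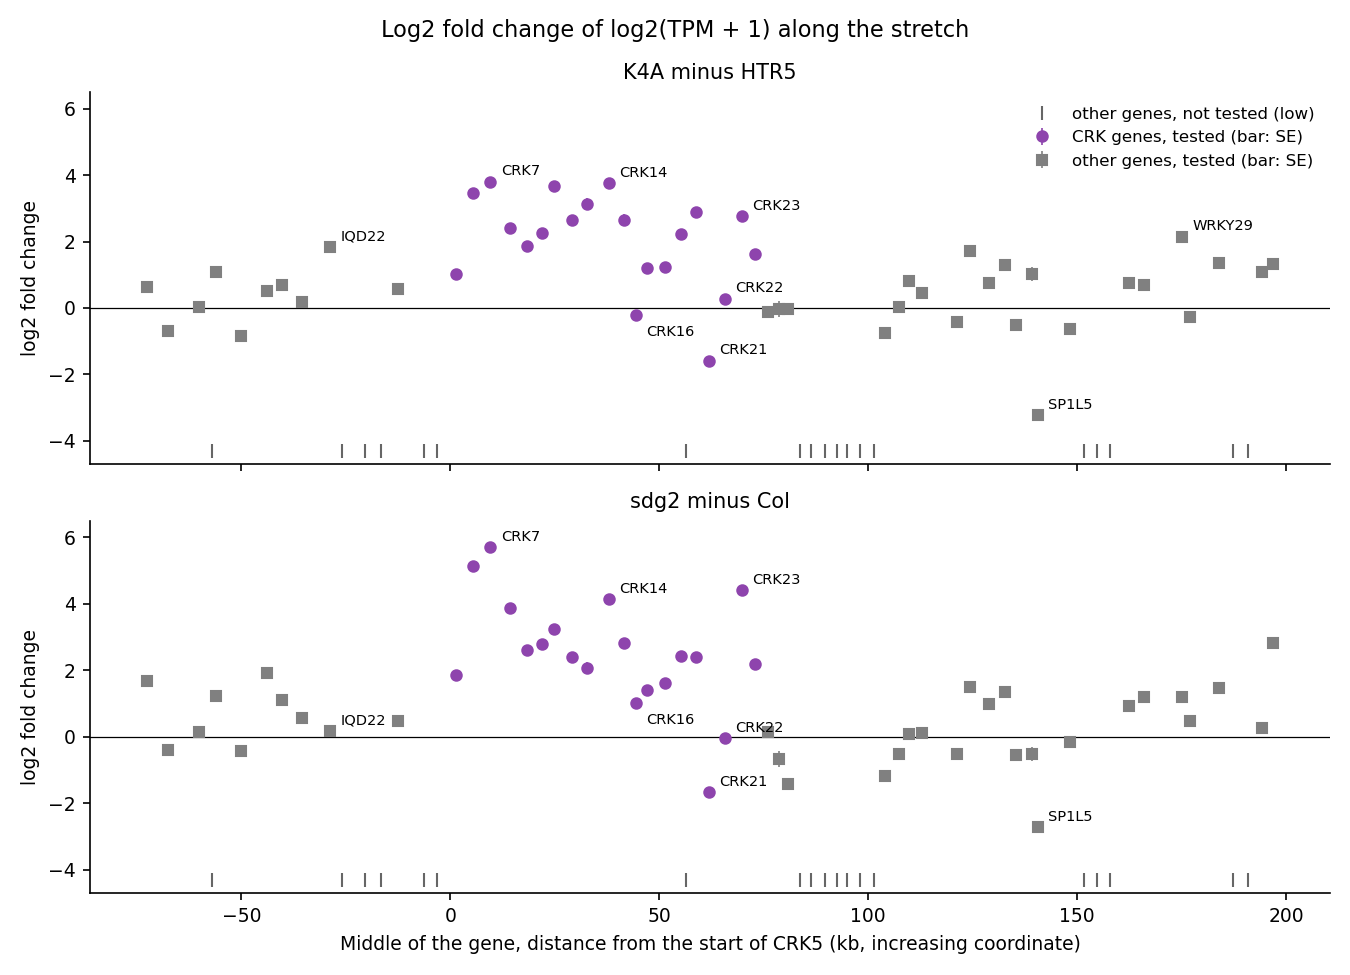
Log2 fold change with its SE for K4A minus HTR5 (top) and sdg2 minus Col (bottom) against the position of each gene's middle, as distance from the start of CRK5 in kb, with circles for CRK genes, squares for other genes and ticks for genes too low to test. The CRK circles lie above 0 except CRK21 in both panels, CRK16 in the upper panel and CRK22 in the lower, and SP1L5 is the lowest of the tested genes shown.

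The order of levels in the run differed between groups. In sdg2 it was led by CRK6, CRK10, CRK7, CRK18 and CRK9, with means of 316, 201, 175, 153 and 121 TPM and no overlap between neighbours in that order. In K4A it was led by CRK10 and CRK18, followed by CRK6 and CRK19, whose libraries overlapped. In HTR5 and in Col, CRK18 came first, followed by CRK21 and CRK10, whose libraries overlapped in both. The lowest mean was that of CRK16 in K4A and sdg2, and that of CRK20 in HTR5 and Col. In sdg2 the libraries of CRK16 overlapped with those of CRK20, and in HTR5 those of CRK20 overlapped with those of CRK13, while in K4A and Col the lowest gene was apart from the next. These are levels per length of the whole gene span, introns included, and exons make up 62.0% to 100% of the spans of these genes, so genes with more intron have lower TPM in all libraries alike.

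HTR5 and Col were close in the run. None of the 20 CRK genes was called by limma in HTR5 against Col, where 9.28% of all genes were called. At an unadjusted p under 0.05 there were 6 of 20, against 5141 of all 20881 genes tested. Limma-voom on the recovered reads called 0 of the CRK genes, and 1844 of 20754 genes. The log2 fold changes lay between -0.35 and 0.26, with a median of 0.12 beside 0.07 over all genes. With median-of-ratios scaling CRK16 was called lower in HTR5 (-0.43). Leaving out HTR5 replicate 1 called CRK19 (0.33) and CRK22 (0.33) higher, and leaving out Col replicate 2 called CRK15 lower (-0.54).

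**Figure D4:**
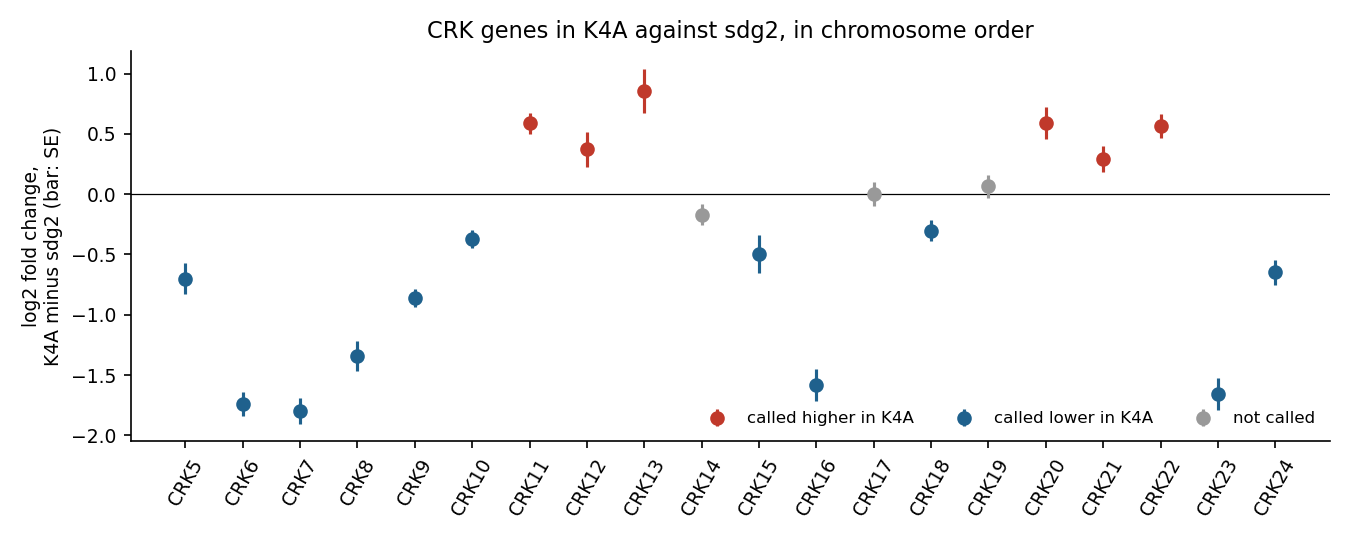
Log2 fold change of K4A minus sdg2 with its SE for the 20 CRK genes in chromosome order, coloured by whether limma called the gene higher in K4A, lower in K4A or not. CRK6, CRK7, CRK8, CRK16 and CRK23 lie lowest, between -1.80 and -1.34, and CRK13 lies highest at 0.86.

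K4A and sdg2 differed from each other in most CRK genes. In K4A against sdg2, 6 CRK genes were called higher and 11 lower, where 50.2% of all genes were called, 20.4% higher and 29.8% lower. The median log2 fold change of the 20 was -0.34, beside -0.08 over all genes, and 5 genes, against 5.45% of all, were at least 2-fold lower in K4A. These 5 were CRK6 (-1.74 ± 0.101), CRK7 (-1.80 ± 0.105), CRK8 (-1.34 ± 0.127), CRK16 (-1.58 ± 0.130) and CRK23 (-1.66 ± 0.134). Higher in K4A were CRK13 (0.86 ± 0.184), CRK11 (0.59 ± 0.0872), CRK20 (0.59 ± 0.131), CRK22 (0.57 ± 0.0983), CRK12 (0.37 ± 0.144) and CRK21 (0.29 ± 0.109). The call on CRK12 was lost with pseudocounts of 0.1 and 0.5, with thinned reads and without any 1 of the 6 K4A and sdg2 libraries. With a pseudocount of 0.1 the calls on CRK13 (0.94, adjusted p = 0.1001) and CRK20 (0.67, adjusted p = 0.0856) were lost. Without sdg2 replicate 3 the call on CRK18, -0.30, was lost (-0.24), and so was that on CRK15, -0.50, without K4A replicate 1 (-0.48) or sdg2 replicate 1 (-0.46). The call on CRK21 was lost with the replicate number as a block (adjusted p = 0.0535, limma) and under several other settings. CRK14, CRK17 and CRK19 were not called, though CRK14 was called lower in K4A with limma-voom (-0.14), with the 2 groups fitted alone (-0.17) and without HTR5 replicate 2 (-0.17).

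The difference of effects, K4A minus HTR5 less sdg2 minus Col, was called for 13 CRK genes, 2 of them positive and 11 negative, where 40.7% of all genes were called, 14.1% positive and 26.6% negative. With median-of-ratios scaling 13 were also called, 4 positive and 9 negative, since CRK14 (-0.22) and CRK18 (-0.19) lost the call and CRK20 (0.55) and CRK22 (0.51) gained it, and 21.3% of all genes were called positive and 17.0% negative. The most negative were CRK7 (-1.90 ± 0.148), CRK6 (-1.67 ± 0.142), CRK23 (-1.65 ± 0.189), CRK8 (-1.47 ± 0.1801) and CRK16 (-1.23 ± 0.184). The positive ones were CRK13 (1.06 ± 0.260) and CRK11 (0.44 ± 0.123). The calls on CRK14 and CRK18 were also lost without K4A replicate 3, sdg2 replicate 1, sdg2 replicate 3 or Col replicate 3, that on CRK14 without K4A replicate 1, and that on CRK18 without K4A replicate 2. Without HTR5 replicate 2, 19 CRK genes were called in K4A against HTR5, 15 for the difference of effects, and 0 in HTR5 against Col. Of all 20881 genes, 15177, 8960 and 1943 were called without that library, in the same order.

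**Figure D5:**
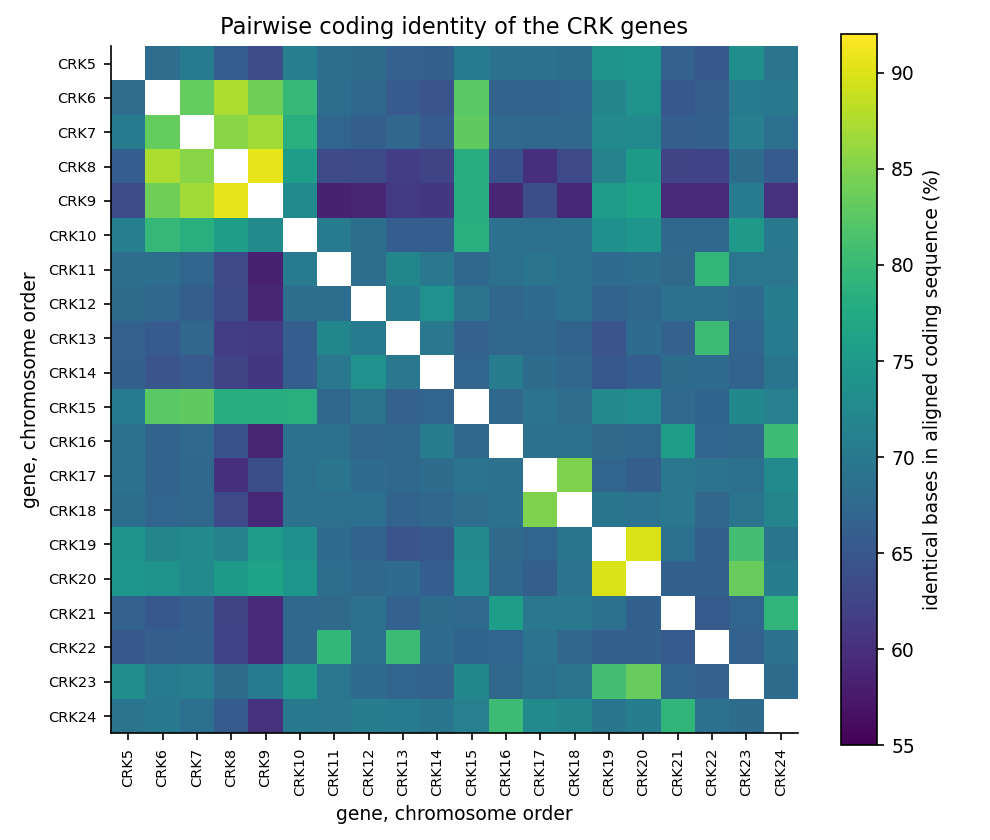
Identity of aligned coding sequence, in percent, for all 190 pairs of the 20 CRK genes in chromosome order, read from the RefSeq annotation. The values run from 58.4% to 90.6%, and the block from CRK6 to CRK9 holds several of the highest.

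Coding sequences in the run were 58.4% to 90.6% identical over 190 pairs, with a median of 68.4%. The median was 69.4% for the 19 pairs of neighbours and 68.3% for the rest. The pair with the highest identity was CRK8 and CRK9, at 90.6%. CRK7 was 86.8% identical to CRK9 and 85.5% to CRK8, and CRK15 was 83.0% identical to CRK7 and 82.5% to CRK6 although it lies further along the run. All of CRK6 to CRK10 and CRK15 were called lower in K4A than in sdg2, as were 11 of the 20 CRK genes in all and 29.8% of all genes. CRK5, only 68.2% identical to CRK6, was also called lower. Of other pairs of like identity, some were called alike and others were not. CRK19 and CRK20 were 89.97% identical, and of them CRK20 was called higher in K4A and CRK19 was not called. CRK22 was 80.3% identical to CRK13 and 79.5% to CRK11. These 3 were called higher in K4A than in sdg2, as were 6 of the 20 CRK genes in all and 20.4% of all genes. CRK17 and CRK18 were 84.9% identical, and CRK18 was called lower in K4A while CRK17 was not called. CRK20 and CRK23 were 83.4% identical, with CRK20 called higher in K4A and CRK23 called lower.

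Some reads of near-identical genes could have been assigned to either copy, and how the authors treated them is not given in the sources used here. Exact stretches of 100 bases within exons were shared by CRK6 and CRK8 (210 sequences of that length), by CRK13 and CRK22 on opposite strands (228) and by CRK17 and CRK18 (18). Exon windows of that length recurring anywhere in the genome made up 11.02% of those in CRK6 and 9.96% in CRK8. They made up 10.7% in CRK13, 11.9% in CRK22, 0.938% in CRK17 and 1.20% in CRK18. In CRK8 they numbered 317, more than the 210 shared with CRK6. In the other 14 genes no exon window of that length recurred elsewhere in the genome, apart from the overlap of CRK16 with CRK17. The read length is not given in the sources used here, and at 50 bases the shares were 21.95% of CRK6, 16.5% of CRK8, 15.4% of CRK13, 16.2% of CRK22, 6.72% of CRK20, 4.70% of CRK18 and 3.78% of CRK17, and 0 in CRK5, CRK12, CRK14, CRK15 and CRK21. These shares do not bound the error of a low gene that shares windows with an abundant one. CRK8, at a mean of 21.9 TPM in sdg2, shares them with CRK6, at 316 TPM there, and CRK13, at 0.678 TPM in HTR5, shares them with CRK22, at 25.3 TPM there. CRK20, at 0.226 TPM in HTR5, shares 62 sequences of 50 bases with CRK19, at 18.5 TPM there. The values of CRK8, CRK13 and CRK20 in particular are uncertain, and so are those of CRK16 and CRK17 where they overlap.

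The 2 sides of the run were quieter. Directly before CRK5, AT4G23110 and AT4G23120 had at most 1 read in any library. Directly after CRK24, AT4G23330 had 12.8 ± 0.671 TPM in K4A against 14.0 ± 0.733 TPM in HTR5, and 14.1 ± 1.15 TPM in sdg2 against 12.6 ± 1.35 TPM in Col, and was called in neither comparison. Its log2 fold changes were -0.12 ± 0.1001 and 0.15 ± 0.1001. It was called lower in K4A than in HTR5 with limma-voom (-0.27), with quantile normalization (-0.30) and under scaling by median of ratios (-0.27). AT4G23340 came next with 1.55 ± 0.763 TPM in K4A against 1.54 ± 0.294 TPM in HTR5, and 0.601 ± 0.0793 TPM in sdg2 against 1.64 ± 0.898 TPM in Col, and was called lower in sdg2 (-0.67). That call was lost without Col replicate 3 (-0.41, limma, adjusted p = 0.1055). The 8 genes from AT4G23350 to AT4G23390 stayed below 2 TPM throughout. Among them AT4G23350 was higher in Col than in the 3 other groups, with 2 to 5 reads per library in K4A, 0 to 5 in HTR5 and 0 in sdg2, against 19 to 23 in Col. It was at least 10.4-fold lower in sdg2 than in Col, against a floor of 3 reads per library, and was also called lower in HTR5 than in Col (-1.18 ± 0.157). The other 7 had at most 5 reads in any library.

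Of the 51 other genes, 32 passed the filter on low values and 19 did not. WRKY29 passed it through K4A and sdg2, where it was high, and AT4G23350 through Col, which favours differences in these counts. Of the 32, 18 were called higher and 7 lower in K4A than in HTR5, and 16 higher and 10 lower in sdg2 than in Col. Shares of 68.6% and 73.2% of all genes were called in these comparisons. Their median log2 fold changes were 0.53 and 0.22, beside 0.14 and 0.31 over all genes. The median in sdg2 was -0.091 with median-of-ratios scaling. In HTR5 against Col, 2 were called higher and 1 lower, where 5.5% of all genes were called higher and 3.78% lower. The untested genes stayed below 1 TPM in every library, 2 of them with no reads and 10 with at most 3 reads in any library. One of the rest was AT4G23515, which codes for a TIR domain by the annotation, with 0.879, 0.937 and 0.914 TPM in K4A and no reads in HTR5 or Col, at least 3.09-fold higher in K4A against the floor of 3 reads per library.

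Defence and hormone genes were among the other genes of the stretch. WRKY29, a transcription factor downstream of FLS2, had 6.53, 5.07 and 6.40 TPM in K4A against 0.519, 0.777 and 0.449 TPM in HTR5, and 3.39, 3.97 and 2.25 TPM in sdg2 against 0.812, 0.543 and 1.18 TPM in Col. All K4A libraries were above all others, with log2 fold changes of 2.14 ± 0.181 in K4A and 1.18 ± 0.181 in sdg2. WRKY29 passed the filter on low values through K4A and sdg2, where it was high. SGT1A, a cochaperone of immune receptors, had 69.6, 73.6 and 71.6 TPM in K4A against 25.8, 29.5 and 27.0 TPM in HTR5, and 80.9, 83.5 and 80.4 TPM in sdg2 against 28.5, 29.3 and 29.2 TPM in Col. Its groups were apart in both pairs. AIRP1, a RING ubiquitin ligase of abscisic acid signalling, averaged 11.99 ± 1.15 TPM in K4A against 3.05 ± 1.03 TPM in HTR5, and 10.7 ± 0.170 TPM in sdg2 against 3.20 ± 0.716 TPM in Col. GSH1, the enzyme of the first step of glutathione synthesis, averaged 157 ± 3.66 TPM in K4A against 106 ± 8.60 TPM in HTR5, and 159 ± 2.13 TPM in sdg2 against 114 ± 3.10 TPM in Col. Both were called higher in K4A and in sdg2. AT4G23440, a gene of the TIR-NBS class of immune receptors, went the other way, with 8.85 ± 0.333 TPM in K4A against 12.4 ± 2.27 TPM in HTR5, and 6.76 ± 0.587 TPM in sdg2 against 10.1 ± 0.569 TPM in Col, called lower in both.

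In some of the other genes the effects in K4A and sdg2 differed. IQD22, a calmodulin-binding protein of the IQ-domain family, had 21.1, 20.9 and 18.7 TPM in K4A against 5.35, 4.77 and 4.74 TPM in HTR5, and 3.96, 4.67 and 4.74 TPM in sdg2 against 3.86, 4.28 and 3.27 TPM in Col. K4A was apart from the other 3 groups, which lay close together, and the difference of effects was 1.65 ± 0.167. CORI3, a cystine lyase induced by coronatine, had 251, 251 and 248 TPM in K4A against 114, 122 and 118 TPM in HTR5, and 117, 119.8 and 122 TPM in sdg2 against 103, 96.3 and 100.02 TPM in Col. It was called higher in both, by 1.08 ± 0.0523 and 0.26 ± 0.0523. The second value was -0.087 with median-of-ratios scaling, -0.034 with quantile normalization and 0.078 with limma-voom, and was called with none of them. CORI3 was also called higher in HTR5 than in Col, by 0.24 ± 0.0523. That call was lost with median-of-ratios scaling (0.14), with the groups fitted alone and without Col replicate 2 (0.21). AT4G23493 averaged 13.2 ± 1.261 TPM in K4A against 6.22 ± 2.41 TPM in HTR5, and 3.10 ± 0.243 TPM in sdg2 against 4.99 ± 1.42 TPM in Col. The difference of effects was 1.54 ± 0.289 for it. In the opposite sense, AT4G23030, a MATE transporter by the annotation, averaged 5.22 ± 0.260 TPM in K4A against 3.43 ± 0.690 TPM in HTR5, and 13.9 ± 1.37 TPM in sdg2 against 2.97 ± 0.712 TPM in Col. AT4G23610, the last gene of the stretch and annotated as a hydroxyproline-rich glycoprotein, averaged 22.2 ± 0.714 TPM in K4A against 8.31 ± 1.94 TPM in HTR5, and 41.3 ± 2.67 TPM in sdg2 against 5.01 ± 0.770 TPM in Col. For these 2 genes the difference of effects was -1.42 ± 0.210 and -1.48 ± 0.189. AT4G23610 was also called higher in HTR5 than in Col, by 0.62 ± 0.134, a call lost with limma-voom (0.68) and with the 2 groups fitted alone. AT4G22980, at the other end of the stretch and annotated as like a molybdenum cofactor sulfurase, averaged 15.5 ± 2.17 TPM in K4A against 9.57 ± 1.30 TPM in HTR5, and 27.4 ± 1.39 TPM in sdg2 against 7.92 ± 0.651 TPM in Col.

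The most negative log2 fold change among tested genes of the stretch in both pairs, on the log2(TPM + 1) scale, was that of SP1L5, a SPIRAL1-like gene of a family that acts on microtubules. It had 1.51, 1.61 and 1.27 TPM in K4A against 24.4, 19.9 and 22.0 TPM in HTR5, and 3.87, 3.59 and 2.89 TPM in sdg2 against 26.7, 27.6 and 30.5 TPM in Col. Every K4A and sdg2 library was far below all HTR5 and Col libraries, and the log2 fold changes were -3.23 ± 0.119 and -2.72 ± 0.119. The difference of effects, -0.51 ± 0.169, was called, but not with thinned reads (-0.31), with quantile normalization (-0.29) or under median-of-ratios scaling (-0.33), nor without any 1 of 6 libraries (K4A replicate 3, HTR5 replicate 1, sdg2 replicates 1 and 2, and Col replicates 1 and 2). The aquaporin gene PIP1;5 had 143, 149 and 146 TPM in K4A against 258, 228 and 249.6 TPM in HTR5, and 131, 115 and 124 TPM in sdg2 against 267, 286 and 285 TPM in Col. It was called lower in both pairs, without overlap, with log2 fold changes of -0.74 ± 0.0625 and -1.17 ± 0.0625. Smaller falls in both pairs, again without overlap, were those of AT4G22990 (-0.69 ± 0.113 in K4A and -0.40 ± 0.113 in sdg2), which the annotation gives an SPX domain, of TRM11 (-0.84 ± 0.154 and -0.44 ± 0.154) and of AT4G23490 (-0.51 ± 0.111 and -0.54 ± 0.111). The call on TRM11 in sdg2 was lost without sdg2 replicate 3 (-0.40) or Col replicate 2 (-0.31). Tic32-IVa, of the chloroplast envelope, averaged 30.6 ± 1.58 TPM in K4A against 22.1 ± 0.993 TPM in HTR5, and 25.4 ± 0.927 TPM in sdg2 against 23.4 ± 1.58 TPM in Col, and was called higher in K4A.

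CRK genes outside the stretch moved in the same direction as most of those in it. Of 25 such genes measured, 20 were tested, and 17 were called higher and 1 lower in K4A than in HTR5, and 19 higher and 1 lower in sdg2 than in Col. Over all genes tested these shares were 42.5% higher and 26.1% lower in K4A, and 52.4% higher and 20.7% lower in sdg2. Some of the 20 passed the filter on low values only through K4A or sdg2, where they were high, which favours rises in these counts. CRK31 had 131 to 181 reads per library in K4A, against 2 to 3 in HTR5 and 0 to 2 in Col. CRK32 had 64 to 117 reads in K4A and 42 to 67 in sdg2, against 1 to 2 in HTR5 and in Col. The median log2 fold changes of the 20 tested genes elsewhere were 1.61 and 1.55, against 2.32 and 2.42 for the 20 genes of the run. Less the median of all genes, these medians were 1.47 and 1.24 for CRK genes elsewhere and 2.18 and 2.11 for the run. CRK36, which acts with BIK1, had 66.0 ± 0.898 TPM in K4A against 3.85 ± 0.539 TPM in HTR5, and 88.6 ± 3.09 TPM in sdg2 against 4.27 ± 0.584 TPM in Col. The largest log2 fold change in sdg2 among them was that of CRK37, with 22.0 ± 0.292 TPM in K4A against 1.23 ± 0.322 TPM in HTR5, and 114 ± 2.75 TPM in sdg2 against 1.25 ± 0.454 TPM in Col. In these genes, as in most of the run, both pairs of groups were far apart. CRK45, a gene of abscisic acid responses, had 57.4 ± 2.21 TPM in K4A against 4.75 ± 1.06 TPM in HTR5, and 104 ± 1.59 TPM in sdg2 against 4.85 ± 0.411 TPM in Col. The gene called lower was CRK42, with 9.22 ± 0.363 TPM in K4A against 11.7 ± 0.772 TPM in HTR5, and 5.34 ± 1.003 TPM in sdg2 against 11.2 ± 0.919 TPM in Col. Whether the run and the genes elsewhere differ beyond their choice was not tested.

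The 5 signalling partners listed, FLS2, BAK1, BIK1, RBOHD and RBOHF, were all called higher in K4A than in HTR5 and in sdg2 than in Col, as were 42.5% and 52.4% of all genes, with median log2 fold changes of 1.77 and 1.30. BIK1 was the widest, with 75.1, 73.7 and 72.7 TPM in K4A against 7.26, 8.91 and 9.95 TPM in HTR5, and 35.9, 33.8 and 37.9 TPM in sdg2 against 6.11, 6.84 and 7.07 TPM in Col. FLS2 had 39.7, 41.2 and 40.3 TPM in K4A against 6.86, 7.82 and 7.41 TPM in HTR5, and 28.8, 24.8 and 28.3 TPM in sdg2 against 9.002, 7.95 and 6.42 TPM in Col. In both genes the K4A libraries were the highest, above all sdg2 libraries, and no groups of either pair overlapped. The oxidase genes followed, RBOHD with 121 ± 5.04 TPM in K4A against 35.0 ± 1.94 TPM in HTR5, and 97.4 ± 4.63 TPM in sdg2 against 40.2 ± 1.97 TPM in Col. RBOHF averaged 27.6 ± 1.20 TPM in K4A against 10.9 ± 1.96 TPM in HTR5, and 19.5 ± 1.47 TPM in sdg2 against 7.36 ± 0.933 TPM in Col. RBOHF was also called higher in HTR5 than in Col. BAK1 averaged 43.5 ± 0.418 TPM in K4A against 22.2 ± 1.35 TPM in HTR5, and 51.2 ± 3.38 TPM in sdg2 against 21.1 ± 1.04 TPM in Col, and was the 1 partner called lower in K4A than in sdg2.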

How the data were processed

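RNA sequencing of 12 Arabidopsis thaliana seedling libraries was analysed from 1 table of TPM that the authors deposited, in which each library sums to 1000000. Per the submitters' processing notes, which give no role or order, fastp 0.20.1, HISAT2 2.1.10, DESeq2 1.26.0 and TAIR10 were named. The counting tool, the use of strand and the treatment of reads that match several genes are not given in the sources used here. Per the file headers each column names its library, and although 1 sdg2 heading closes with "Counts", its column sums to 1000000 like the rest and was read as TPM.

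Reads were recovered as TPM times the whole gene span of RefSeq TAIR10.1. At a tolerance of 0.05, 99.98% of non-zero values came out as whole reads. Of the genes, 27433 matched a locus tag and 27429 had recovered reads, including all 71 genes of the stretch. The totals above are sums of recovered reads. Floors of 3 reads per library cover counting error only.

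Sample titles gave the groups and the replicate numbers. Log2(TPM + 1) was fitted with limma 3.58.1 under R 4.3.3, with eBayes moderation and a variance trend, over all 12 libraries, for the 20881 genes with at least 1 TPM in at least 3 libraries. A gene was called at a Benjamini-Hochberg adjusted p under 0.05 over all of them. TPM are not counts, so a count model served only as an alternative (limma-voom on recovered reads). The fit was run on simulated reads drawn from 1 mean profile at a dispersion of 0.01, with a small set of genes changed in K4A alone. These data have far more called genes and an outlying library, so that run cannot vouch for the calls here. With 3 libraries a group, p-values set each difference against the spread between these libraries, pooled over the 4 groups and moderated. The spread of HTR5 replicate 2 thus enters every comparison. Without it the genes called in sdg2 against Col went from 15278 to 16177.

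The members, the lists of other CRK genes, partners and markers, and the motifs were chosen with earlier results of these data known. The genes named are all CRK genes of the run, its 2 neighbours on each side, genes of known role, and the 4 largest rises and falls among other genes of the stretch in each of the main pairs of groups, or 2 in the remaining comparisons, if called without overlap and at a mean of at least 5 TPM in the higher group. Symbols are those of RefSeq or of the lists. No proteins are shown. Sequences were read from TAIR10.1 with Python 3.11.15 and coding identity was computed with Biopython 1.88.

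Same-numbered replicates did not deviate together, with correlations of -0.136 to 0.0703 over 18 pairs of libraries, so the numbers were not used as pairs. Alternatives tried were other pseudocounts (0.1 and 0.5), the filter dropped or set to a mean of 5 TPM, quantile normalization, median-of-ratios scaling, limma-voom, thinned reads, fits of 2 groups at a time, a replicate block, stricter thresholds, Col in place of HTR5 for K4A, and leaving out each library.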

Additional observations from a re-analysis of the deposited data

Results flagged for a closer look

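The effect of K4A against HTR5 and that of sdg2 against Col were compared by a test of the difference (limma, adjusted p under 0.05). It called 13 of the 20 CRK genes and 17 of the 32 other genes tested. Over all genes tested, 40.7% passed that test. Given below are the 10 other genes among the named, some of them named for the size of this difference, so their number is not a result. The difference of log2 fold changes, K4A minus HTR5 less sdg2 minus Col, was negative for CRK5 (-0.83), CRK6 (-1.67), CRK7 (-1.90), CRK8 (-1.47), CRK9 (-0.74), CRK10 (-0.55), CRK14 (-0.38), CRK16 (-1.23), CRK18 (-0.37), CRK23 (-1.65) and CRK24 (-0.56). It was positive for CRK11 (0.44) and CRK13 (1.06). Most of these genes were higher in both K4A and sdg2 than in their controls, so that a negative difference is a smaller rise in K4A. CRK16 was called higher in sdg2 alone. The values of CRK14 and CRK18 missed the threshold with median-of-ratios scaling (-0.22 and -0.19) and without any 1 of 5 libraries each. The value of CRK13 missed the threshold with a pseudocount of 0.1 (1.58), and HTR5 replicate 3 was low for this gene.

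Among the named other genes of the stretch, the difference was positive for IQD22 (1.65), AT4G23493 (1.54), WRKY29 (0.97), CORI3 (0.82), PIP1;5 (0.43) and Tic32-IVa (0.34). It was negative for AT4G23610 (-1.48), AT4G23030 (-1.42), AT4G22980 (-1.03) and SP1L5 (-0.51). PIP1;5 fell less in K4A than in sdg2. The value of SP1L5 missed the threshold with thinned reads (-0.31), with quantile normalization (-0.29) and under median-of-ratios scaling (-0.33), and without any 1 of 6 libraries. That of Tic32-IVa missed it without K4A replicate 3 (0.30), sdg2 replicate 3 (0.31) or Col replicate 2 (0.29).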

How the results depend on the processing

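The CRK medians of K4A over HTR5 and of sdg2 over Col stayed positive under every alternative run. The CRK median in K4A against HTR5, 2.32, was 2.64 and 2.54 with pseudocounts of 0.1 and 0.5, 2.19 with median-of-ratios scaling, 2.14 with quantile normalization, 2.52 with limma-voom and 2.46 for K4A against Col. In sdg2 against Col, 2.42, it was 2.83 and 2.72 with those pseudocounts, 2.61 with the filter at a mean of 5 TPM, 2.21 with median-of-ratios scaling, 2.26 with quantile normalization and 2.70 with limma-voom. For the other genes, the median in K4A against HTR5, 0.53, was 0.13 with no filter, 0.39 with median-of-ratios scaling and 0.34 with quantile normalization. In sdg2 against Col, 0.22, it was 0.048 with no filter, -0.091 with median-of-ratios scaling, -0.059 with quantile normalization and 0.053 with limma-voom. In K4A against sdg2 the CRK median, -0.34, was -0.25 with median-of-ratios scaling. That of the other genes, -0.15, was 0.00 with no filter, -0.19 with the filter at a mean of 5 TPM, -0.068 with median-of-ratios scaling and -0.077 with quantile normalization. For the difference of effects the CRK median, -0.38, was -0.20 with median-of-ratios scaling, and that of the other genes, -0.12, was 0.044 with no filter, 0.064 with median-of-ratios scaling and 0.020 with quantile normalization. The cause of these shifts was not tested.

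With a 2-fold threshold added, the other genes called were 10 for K4A against HTR5, 13 for sdg2 against Col, 4 for K4A against sdg2 and 1 for HTR5 against Col, CRK genes called in K4A against sdg2 were 5, and for the difference of effects 6 CRK genes and 6 other genes were called. Of all 20881 genes, 2808 were then called higher and 1791 lower in K4A against HTR5, and 3051 and 1457 in sdg2 against Col. The numbers were 1029 and 1138 in K4A against sdg2, 87 and 209 in HTR5 against Col, and 1104 and 1208 for the difference of effects. At an adjusted p under 0.01, 10 other genes were called for that difference, and the share of all genes was not worked out at that threshold. In HTR5 against Col 1 CRK gene was called with median-of-ratios scaling, and 5 other genes with no filter or 1 with the groups alone. Of all genes, 2197 of 20881, 1953 of 25665 and 688 of 20881 were called under these settings, in that order. For the difference of effects, the other genes split into 8 positive and 9 negative, or 10 and 4 with median-of-ratios scaling. Over all genes 14.1% were positive and 26.6% negative, or 21.3% and 17.0% with that scaling.

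Leaving out 1 library at a time gave 18 to 19 called CRK genes for K4A against HTR5, 19 for sdg2 against Col, 14 to 18 for K4A against sdg2, 11 to 15 for the difference of effects and 0 to 2 for HTR5 against Col. Of all 20881 genes, 13272 to 15177, 14296 to 16177, 8908 to 12348, 7066 to 9306 and 1277 to 2684 were called, in that order. Other genes of the stretch called were 2 to 5 in HTR5 against Col, and their median was 0.19 to 0.28 in sdg2 against Col and -0.18 to -0.11 in K4A against sdg2. Of the values of named genes under the alternatives, 4449 kept their side of the threshold, 166 lost the call, 36 gained one and 4 changed sign. Among the 4449 are values with a library left out of neither compared group, where the fold change cannot move and only the shared spread does. The 4 that changed sign were CORI3 (-0.087 with median-of-ratios scaling, -0.034 with quantile normalization) and Tic32-IVa (-0.22 and -0.25) in sdg2 against Col.

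With the replicate number as a block, 19 CRK genes were called for K4A against HTR5, 19 for sdg2 against Col, 16 for K4A against sdg2, 13 for the difference of effects and 0 for HTR5 against Col. Of all 20881 genes, 14070, 15126, 10135, 7986 and 1667 were called with the block, in that order. Of 18 pairs 6 correlated best with their own number. CRK21 in K4A against sdg2 was the 1 named call that the block changed (adjusted p = 0.0535). Low depth limits the fold of CRK20, which had 1 to 6 reads per library in HTR5 and Col.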
